A study of Mus musculus with 24 samples.

Results

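The genes described here are those of the autophagy machinery, the lysosome and the proton pump that acidifies it, the V-ATPase, in mouse gastrocnemius muscle. They were taken by symbol: 38 listed genes and every symbol that begins with Atp6v0 or Atp6v1. The rule found 64 gene models with 62 symbols among the 36172 models of the deposited tables, 39 from the list and 25 of V-ATPase subunits or their pseudogenes. Of these 64 models, 54 passed the filter on low counts and were tested. The 10 others were Atg4a (both models), Atp6v0a2 model 1, Atp6v0c-ps1, Atp6v0c-ps2, Atp6v1g3 and Atp6v1e2, all with a count of 0 in every library, and Atp6v1b1, Atp6v1c2 and Atp6v0d2, with 0.6, 9.4 and 50.3 estimated counts summed over the 24 libraries.

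Macroautophagy encloses cytoplasm or organelles in a double membrane, the autophagosome, and delivers them to the lysosome for breakdown. The Ulk kinase complex starts the process, a lipid kinase complex marks the membrane, and a chain of ubiquitin-like conjugation reactions attaches proteins of the Atg8 family to it, to which receptors tether their cargo, mitochondria included. In skeletal muscle this route, beside the proteasome, is known to degrade fibre contents during disuse, fasting and loss of insulin, and FoxO and TFEB transcription factors are known to act on its genes.

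The study asked how muscle responds to disuse and to diabetes with and without Notch2 in the fibre. All mice were C57BL/6 and carried floxed Notch2 alleles, and the 24 libraries were from whole gastrocnemius muscle, 4 in each of 6 groups. WT mice were Notch2f/f, and Notch2-mKO mice were Mlc1fCre/+;Notch2f/f, so that Cre recombinase came from a locus of muscle fibres and other cells of the tissue keep Notch2. Each genotype gave controls, muscle unloaded by suspending the hindlimbs for 7 days, and muscle taken 14 days after streptozotocin (STZ, 150 mg/kg), which destroys insulin-producing cells and so causes diabetes. The labels do not give the age of the mice or say that replicates were separate animals, so the spread behind each p-value is that of these samples and may be technical.

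Libraries held 33112459 to 56369917 estimated counts, and levels are given as CPM (counts scaled to library size by the TMM method). At the lowest of these totals 3 counts are worth 0.0906 CPM, a floor for counting error only. All 12 muscle fibre markers were above 0 in every library. Their summed level was 320100 to 386400 CPM in WT controls, 238200 to 294700 after unloading (2 of 12 lower) and 244100 to 307100 in diabetes (7 of 12 lower). In Notch2-mKO muscle it was 308700 to 346300, 185800 to 321000 (1 lower) and 278800 to 308900 (2 lower). The sum over 7 fibroblast and matrix markers was 779 to 1052 CPM in WT controls, 321 to 642 after unloading and 312 to 526 in diabetes. Of the 7 markers 3 were lower and 1 higher after unloading, and 3 lower and 2 higher in diabetes. The part of these shifts in the members' changes was not tested. Notch2 itself averaged 1.84 ± 0.068 CPM (SD, n = 4) in WT controls and 1.87 ± 0.584 (SD, n = 4) in Notch2-mKO controls, so whole-gene counts of whole muscle did not separate the genotypes, and they do not check the labels. Libraries also differed in the level of AT-rich against GC-rich transcripts. The mean difference in centred log2 CPM between 1298 genes under 42% GC and 2621 genes over 56% GC was -0.677 ± 0.348 in WT controls, 0.423 ± 0.077 after unloading and 0.398 ± 0.153 in diabetes, and -0.323 ± 0.274, 0.025 ± 0.222 and 0.154 ± 0.153 in the same order in Notch2-mKO muscle (SD, n = 4 each). Changes are therefore given as fitted, and for the genes described one by one also with the trend on GC content and transcript length removed from every library where that alters a call. Whether the trend is biological or technical cannot be told apart, because it moves with the groups.

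In WT muscle unloading raised 18 of the 54 tested members and lowered 3, at an adjusted p below 0.05 in edgeR's quasi-likelihood test, where 18.4% of all 13048 genes tested were higher and 16.3% lower. Diabetes raised 12 and lowered 7, against 17.8% and 15.5% of all genes. The 18 higher calls after unloading are 33.3% of the members, above the share of all genes, while the 12 in diabetes are 22.2%. In Notch2-mKO muscle 7 members were higher after unloading (4.11% of all genes) and 5 in diabetes (3.05%), and 0 were lower in edgeR's test (3.2% and 2.54% of all genes). At an unadjusted p below 0.05, 1 and 5 members were lower there, against 1440 and 1386 of the 13048 genes. DESeq2 called 0 members lower in both comparisons. The median member changed by 0.20 on the log2 scale after unloading in WT muscle, against -0.019 for all genes, and by 0.06 in diabetes, against -0.015. In Notch2-mKO muscle the medians were 0.13 against 0.02 after unloading and 0.02 against -0.01 in diabetes. In whole muscle fewer cells of a type and less RNA per cell cannot be told apart.

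Atg3, Bnip3, Bnip3l and Pink1 were higher in all 4 treatment comparisons, and Lamp2 and Rb1cc1 in 3 of them. Once the GC and length trend was taken out, the counts of higher and lower members were 14 and 4 after WT unloading (10.8% and 15.7% of all genes), 7 and 5 in WT diabetes (10.4% and 13.8%), 4 and 0 after Notch2-mKO unloading (3.76% and 4.0%) and 2 and 0 in Notch2-mKO diabetes (1.95% and 2.67%). In that fit Pink1 was the member higher in all 4 comparisons, and Map1lc3a and Tfeb were higher in 3. The 2 comparisons within a genotype share their 4 control libraries, so agreement between unloading and diabetes is partly built in. No share of all genes that passed in several comparisons is given, so calls in 3 or 4 do not set these members apart.

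**Figure D1:**
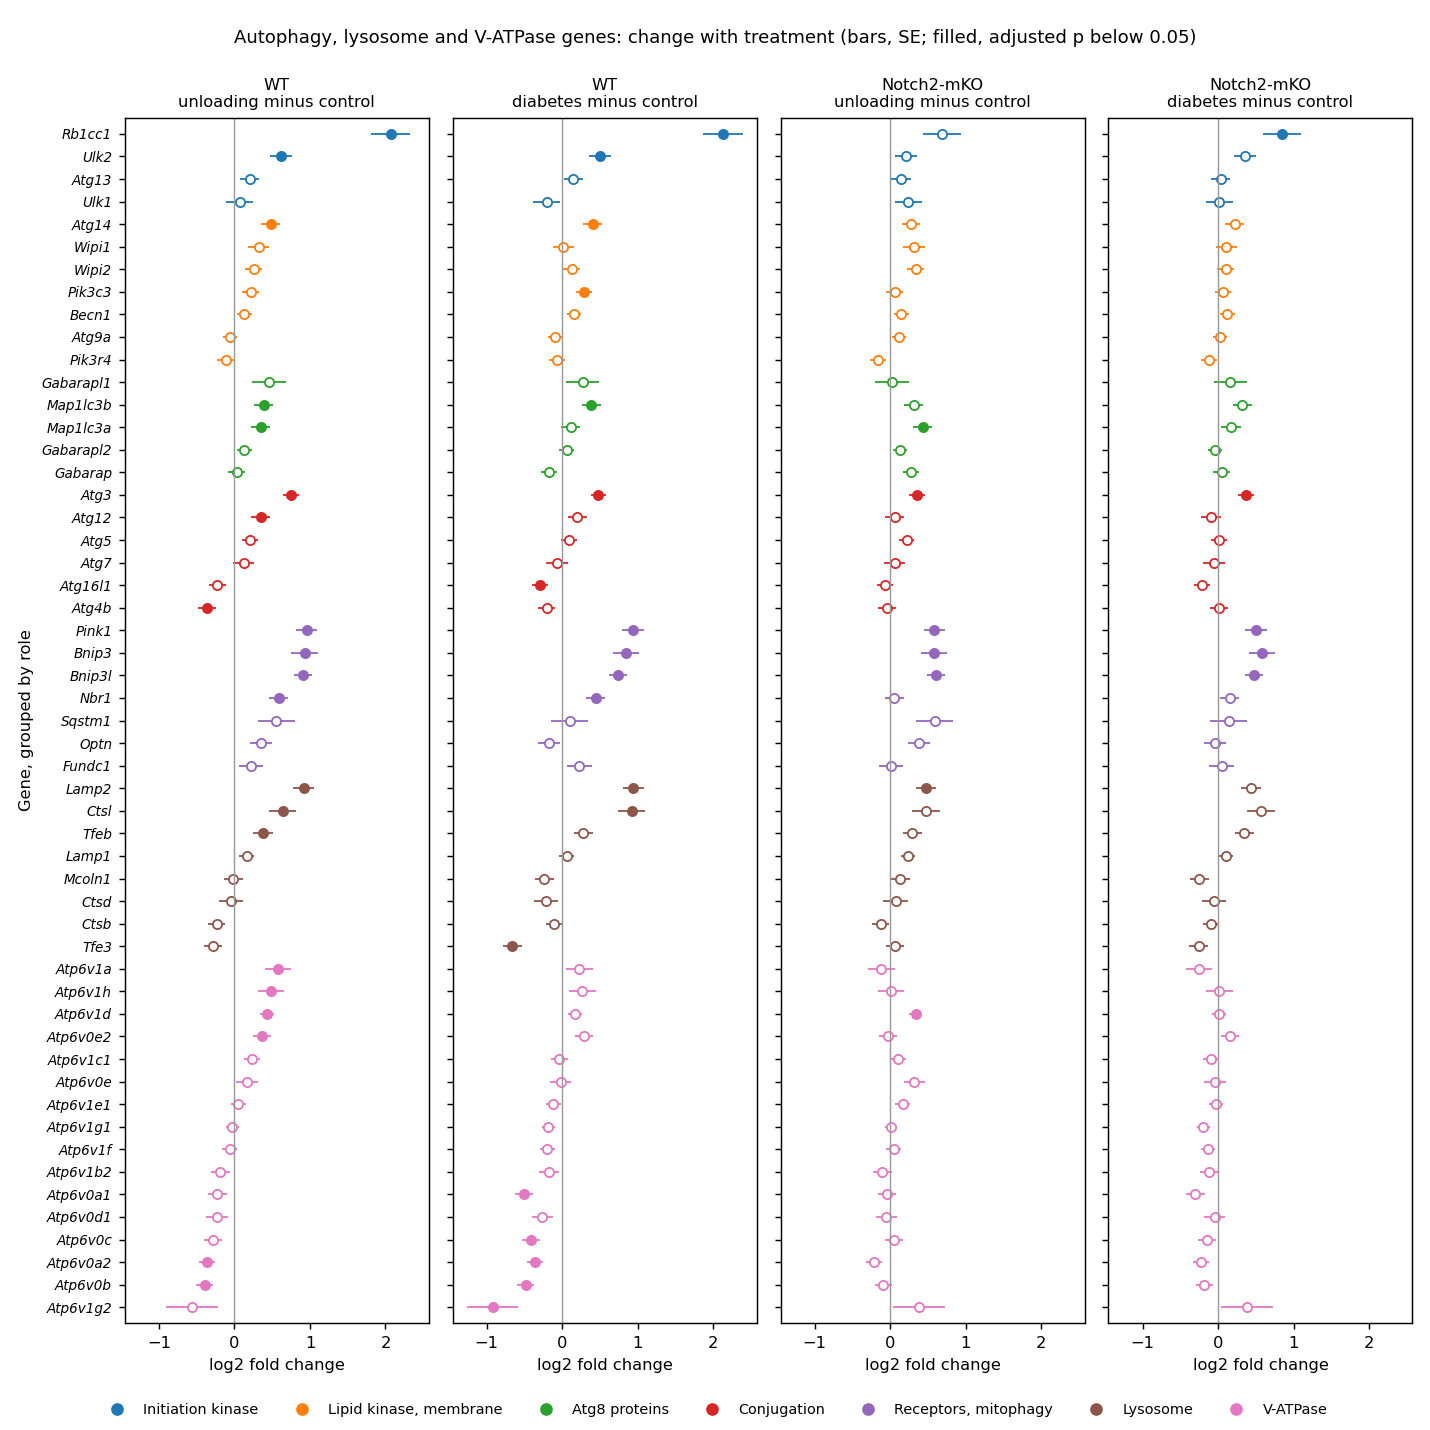
Log2 fold change (horizontal axis) of 53 of the 54 tested members (vertical axis, grouped by role; Atp6v0a4, near the detection limit, is left out) in each treatment comparison, as points with SE bars; filled points passed the test. Pink1, Bnip3 and Bnip3l lie to the right of 0 in all 4 panels, and several V-ATPase subunits lie to the left of 0 in WT diabetes.

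Promoter sequence was matched for 46 of the 62 symbols, as 54 windows of 300 bases (250 before to 50 after the start site) from RefSeq on GRCm38.p6, the assembly also called mm10. The E-box CACGTG, a palindrome bound by TFEB and other basic helix-loop-helix factors, was found in 13 windows (24.1%), against 7.15% of 32851 windows of all genes. The longer TCACGTG, searched on both strands and containing the first motif, was in 10 windows (18.5%) against 3.77%. GTAAACA, a FoxO-type site, was in 1 window (1.85%), that of Atp6v1b1, against 3.65%. Of the 13 genes with CACGTG, 5 were higher and 1 lower after WT unloading (all genes, 18.4% and 16.3%). Of 28 tested genes with a window but no match 8 were higher and 1 lower, and of 13 tested genes without a window 5 and 1. In WT diabetes 4 and 1 of the 13 with CACGTG were higher and lower, and 5 and 4 of the 28 (all genes, 17.8% and 15.5%). For Notch2-mKO muscle 2 of the 13 and 3 of the 28 were higher after unloading (all genes, 4.11%), and 2 and 1 in diabetes (3.05%). The 250 bases before the start site are printed for 3 genes that were higher in all 4 comparisons (Pink1, Bnip3, Atg3) and for 3 lysosome genes with several matches and no call in any treatment comparison (Lamp1, Mcoln1, Ctsd), 5′ to 3′ on the gene's strand, with matches in capitals.
Pink1, chr4:138326297-138326546, minus strand: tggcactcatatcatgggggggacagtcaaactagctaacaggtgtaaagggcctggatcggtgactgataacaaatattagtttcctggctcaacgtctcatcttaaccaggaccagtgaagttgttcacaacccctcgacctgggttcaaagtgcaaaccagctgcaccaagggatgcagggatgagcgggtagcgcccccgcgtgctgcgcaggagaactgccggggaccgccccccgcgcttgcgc
Bnip3, chr7:138909507-138909756, minus strand: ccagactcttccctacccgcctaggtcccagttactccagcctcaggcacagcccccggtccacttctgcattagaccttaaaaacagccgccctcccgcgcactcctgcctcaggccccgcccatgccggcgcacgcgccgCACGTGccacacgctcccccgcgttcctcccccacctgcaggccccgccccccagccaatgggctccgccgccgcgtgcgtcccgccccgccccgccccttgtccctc
Atg3, chr16:45158579-45158828, plus strand: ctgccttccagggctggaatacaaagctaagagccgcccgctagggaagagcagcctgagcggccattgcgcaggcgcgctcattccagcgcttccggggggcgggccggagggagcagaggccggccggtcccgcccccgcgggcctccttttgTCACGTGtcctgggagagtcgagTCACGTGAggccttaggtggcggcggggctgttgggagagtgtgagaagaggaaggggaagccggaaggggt
Lamp1, chr8:13158911-13159160, plus strand: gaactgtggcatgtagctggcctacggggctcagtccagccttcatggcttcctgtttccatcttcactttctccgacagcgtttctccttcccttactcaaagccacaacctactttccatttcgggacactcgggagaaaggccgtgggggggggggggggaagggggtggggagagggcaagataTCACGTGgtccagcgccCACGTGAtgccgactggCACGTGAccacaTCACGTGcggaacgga
Mcoln1, chr8:3500269-3500518, plus strand: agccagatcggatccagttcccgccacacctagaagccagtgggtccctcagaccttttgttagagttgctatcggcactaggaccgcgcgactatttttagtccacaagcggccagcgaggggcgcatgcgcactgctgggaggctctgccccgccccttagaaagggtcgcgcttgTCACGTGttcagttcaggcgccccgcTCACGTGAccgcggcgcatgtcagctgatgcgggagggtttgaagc
Ctsd, chr7:142387828-142388077, minus strand: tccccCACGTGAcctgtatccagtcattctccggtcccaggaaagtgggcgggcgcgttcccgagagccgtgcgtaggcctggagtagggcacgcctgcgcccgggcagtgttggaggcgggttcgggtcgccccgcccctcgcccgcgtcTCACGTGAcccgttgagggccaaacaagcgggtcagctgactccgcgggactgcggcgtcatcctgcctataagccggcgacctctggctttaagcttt
Lamp1 held 4 matches to CACGTG within 61 bases of its start and Pink1 none. A match is a run of letters and not a measured binding site.

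Among receptors and mitophagy genes, 4 of 7 were higher in WT muscle under each treatment and 3 of 7 in Notch2-mKO muscle (all genes, 18.4%, 17.8%, 4.11% and 3.05%). After removal of the trend 4 were higher and 1 lower after WT unloading, and 1 and 1 in WT diabetes (all genes, 10.8% and 15.7%, and 10.4% and 13.8%). For Notch2-mKO muscle the counts were 2 and 0 after unloading and 1 and 0 in diabetes (all genes, 3.76% and 4.0%, and 1.95% and 2.67%). Pink1 encodes the kinase that marks damaged mitochondria, and it had the highest level per length of all members in WT controls, 358 ± 64.0 CPM per kb (SD, n = 4). Ctsd was within that spread, at 350 ± 53.2 CPM per kb. The level of Pink1 was 1001, 870, 639 and 891 CPM in WT controls (replicates 1 to 4), 1549, 1756, 1824 and 1469 after unloading, and 1350, 1700, 2024 and 1432 in diabetes. In Notch2-mKO muscle Pink1 stood at 1224, 1025, 846 and 1017 CPM in controls, 1489, 1407, 1608 and 1665 after unloading, and 1385, 1675, 1412 and 1352 in diabetes. Every treated library lay above every control library of its genotype. The WT log2 fold changes of Pink1 were 0.96 ± 0.14 (SE, adjusted p = 2.17e-05) after unloading and 0.94 ± 0.14 (adjusted p = 3.8e-05) in diabetes. In Notch2-mKO muscle it rose by 0.58 ± 0.14 (adjusted p = 0.0159) and 0.50 ± 0.14 (adjusted p = 0.0393), calls that held in 6 and 1 of 8 fits that each omit a library. The difference between genotypes did not pass (-0.37, adjusted p = 0.408, and -0.43, adjusted p = 0.56). Its transcript is GC-rich (59.0%), and with the trend removed the WT changes were 1.20 under either treatment.

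Bnip3 and Bnip3l encode receptors in the outer mitochondrial membrane that bind Atg8 proteins. Bnip3 ranged from 161 to 174 CPM in WT controls, and read 477, 289, 268 and 248 CPM after unloading and 224, 297, 403 and 283 in diabetes. Bnip3l was at 33.2, 33.1, 30.02 and 41.6 CPM in WT controls, 75.4, 66.3, 57.4 and 59.6 after unloading and 52.2, 58.0, 69.8 and 49.0 in diabetes. Neither gene's treated and control libraries overlapped. Bnip3 rose by 0.93 ± 0.17 after unloading (adjusted p = 0.000239) and 0.84 ± 0.17 in diabetes (adjusted p = 0.000687), and Bnip3l by 0.91 ± 0.12 (adjusted p = 6.52e-06) and 0.73 ± 0.12 (adjusted p = 7.7e-05). Both transcripts are AT-rich (41.6% and 41.9% GC). With the trend removed Bnip3 was at 0.32 and 0.31 and no longer passed, and Bnip3l stayed higher after unloading (0.29, adjusted p = 0.0336) but not in diabetes (0.14, adjusted p = 0.328).

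In Notch2-mKO muscle Bnip3l was at 41.5, 34.5, 38.7 and 39.2 CPM in controls, 64.9, 54.6, 53.9 and 60.5 after unloading and 50.4, 51.0, 55.4 and 58.2 in diabetes. It rose by 0.60 ± 0.12 (adjusted p = 0.00592) and 0.48 ± 0.12 (adjusted p = 0.0227). The unloading call held in 8 of 8 fits that omit a library and with the trend removed (0.37, adjusted p = 0.0234), while the diabetes call held in 3 of 8. Bnip3 in Notch2-mKO muscle read 196, 187, 202 and 168 CPM in controls, 258, 260, 242 and 364 after unloading and 257, 283, 299 and 291 in diabetes. Its changes of 0.58 ± 0.17 (adjusted p = 0.0428) and 0.58 ± 0.17 (adjusted p = 0.0464) each held in 1 of 8 fits that omit a library, and neither passed with the trend removed (0.33, adjusted p = 0.299, and 0.31, adjusted p = 0.376).

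Sqstm1 (p62) and Nbr1 encode receptors for ubiquitin-tagged cargo. Sqstm1 was at 767, 768, 887 and 706 CPM in WT controls, 1871, 1041, 817 and 870 after unloading and 700, 854, 935 and 853 in diabetes. After Notch2-mKO unloading it read 677, 1006, 826 and 2043 CPM, with controls at 670 to 828 and diabetes at 746 to 914. One library in each unloaded group, replicate 1 in WT and replicate 4 in Notch2-mKO, was far above the other 3. Replicate 2 of each unloaded group also lay above its controls, and the remaining libraries did not. Sqstm1 passed no treatment test as fitted: its WT unloading change was 0.56 ± 0.25 (adjusted p = 0.0829), and 0.22 without replicate 1 (adjusted p = 0.502). Over the 8 fits that omit a library of either group its adjusted p ranged from 0.0445 to 0.502. Once the trend was removed, the change was 0.69 (adjusted p = 0.0334). After Notch2-mKO unloading it was 0.59 ± 0.25 (adjusted p = 0.137). Nbr1 rose in WT muscle by 0.59 ± 0.12 after unloading (adjusted p = 0.000795) and 0.44 ± 0.12 in diabetes (adjusted p = 0.00819), from 57.6 to 62.6 CPM in controls to 72.9 to 114 and 69.2 to 92.3. With the trend removed the unloading call held (0.42, adjusted p = 0.0105) and the diabetes call did not (0.27, adjusted p = 0.107). Optn, the receptor optineurin, and Fundc1, a mitophagy receptor of the outer membrane, passed no treatment test as fitted. In the fit without the trend, Fundc1, at 38.8% GC, was lower in WT muscle (-0.66 after unloading and -0.57 in diabetes), where it had been at 0.22 and 0.23 as fitted.

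**Figure D2:**
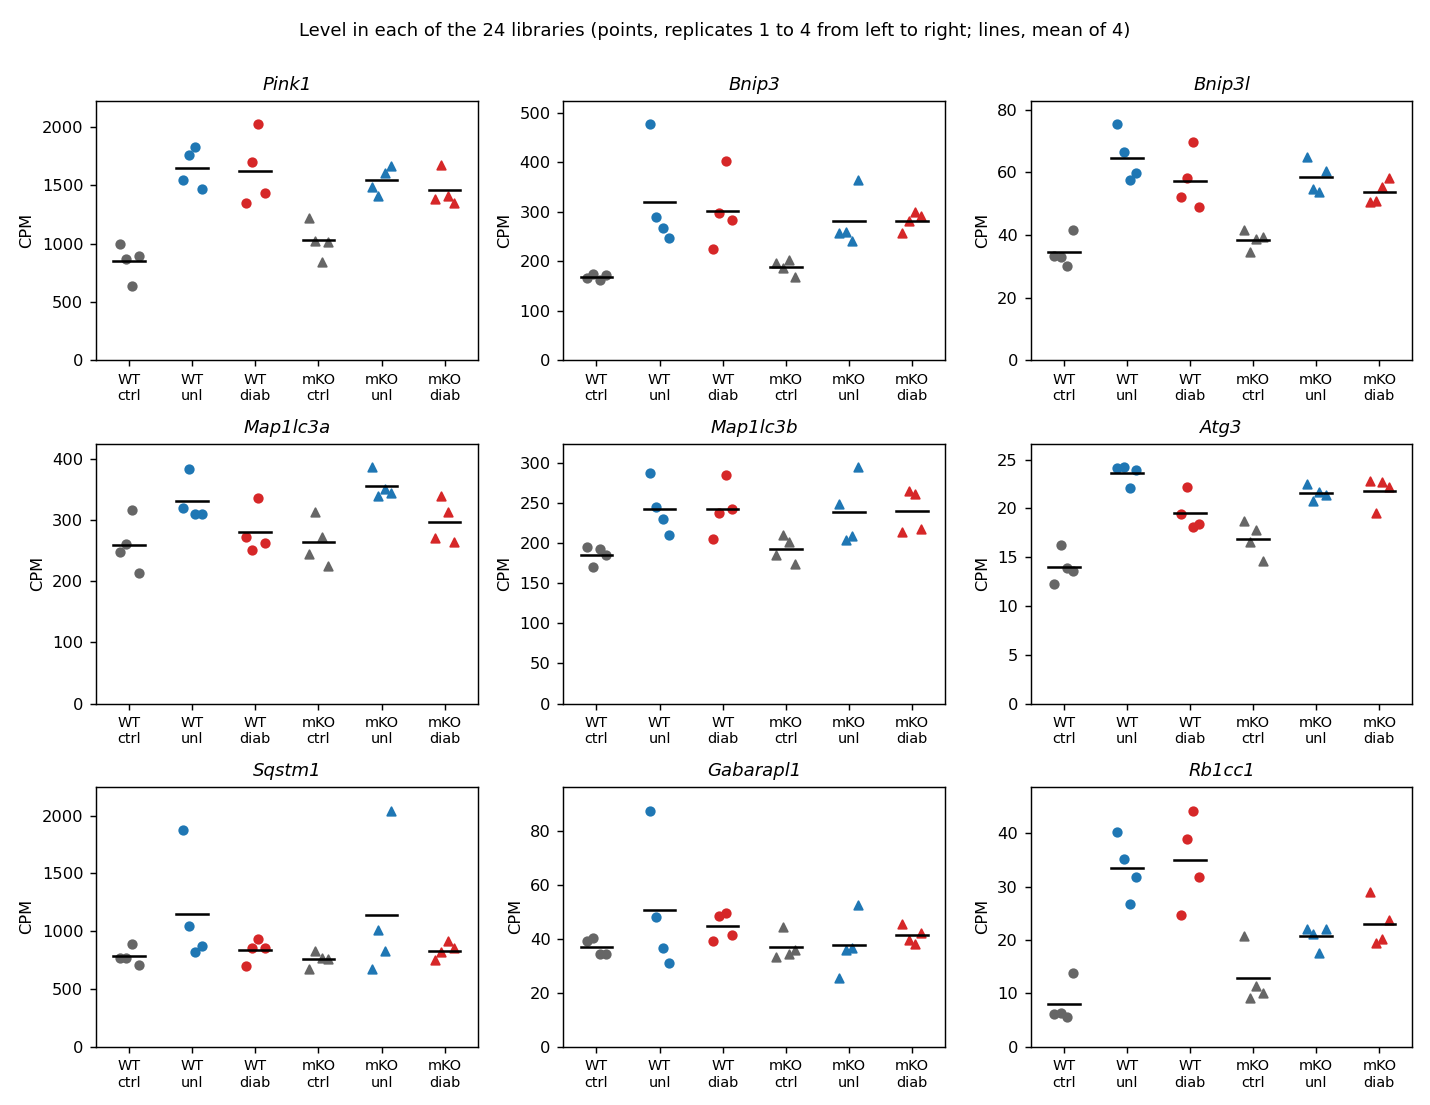
Level in CPM (vertical axes, from 0) of 9 members in each of the 24 libraries, grouped by genotype and condition on the horizontal axes (ctrl, control; unl, unloading; diab, diabetes); points are libraries and lines the means of 4. Pink1 and Bnip3l in treated muscle lie above all controls of the same genotype, while Sqstm1 is raised by 1 library in each unloaded group.

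Of the 5 Atg8 genes, whose proteins are lipidated onto the autophagosome, Map1lc3a and Map1lc3b (LC3A and LC3B) were higher after WT unloading (18.4% of all genes). Map1lc3b was at 195, 171, 193 and 185 CPM in WT controls, 288, 245, 230 and 211 after unloading and 206, 238, 286 and 242 in diabetes. Unloaded and diabetic libraries lay above every control. It rose by 0.39 ± 0.13 under each treatment (adjusted p = 0.0184 and 0.0204), and by 0.56 with the trend removed in both. In Notch2-mKO muscle Map1lc3b was at 174 to 210 CPM in controls, 205 to 295 after unloading and 214 to 265 in diabetes, and did not pass (0.32 ± 0.13, adjusted p = 0.118, and 0.32 ± 0.13, adjusted p = 0.132). Map1lc3a was at 248, 261, 317 and 214 CPM in WT controls and 319, 384, 310 and 310 after unloading, ranges that overlapped through control replicate 3. Its change of 0.35 ± 0.13 (adjusted p = 0.0372) held in 3 of 8 fits that omit a library and was 0.73 with the trend removed (adjusted p = 0.000269).

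In WT diabetes Map1lc3a read 250 to 336 CPM and did not pass as fitted (0.11 ± 0.13, adjusted p = 0.541), but did with the trend removed (0.54, adjusted p = 0.00415). Its transcript is 63.1% GC. Map1lc3a also rose after Notch2-mKO unloading, from 245, 313, 272 and 224 to 386, 340, 350 and 344 CPM (0.43 ± 0.13, adjusted p = 0.0425), without overlap of the groups. That call held in 1 of 8 fits that omit a library and with the trend removed (0.47, adjusted p = 0.028). Gabarapl1 was at 39.2, 40.4, 34.4 and 34.3 CPM in WT controls and 87.6, 48.2, 36.4 and 31.2 after unloading, so that replicate 1 carried the difference. The change was 0.46 ± 0.22 (adjusted p = 0.113), and 0.06 without that library. In Notch2-mKO muscle Gabarapl1 read 33.2 to 44.5 CPM in controls, 25.4 to 52.6 after unloading and 38.3 to 45.6 in diabetes (0.02 ± 0.22, adjusted p = 0.964, and 0.16 ± 0.22, adjusted p = 0.715). Gabarap and Gabarapl2, the other Atg8 genes, passed in no treatment comparison.

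The largest fold changes of any member in WT muscle were those of Rb1cc1 (FIP200), the scaffold of the Ulk kinase complex. In WT controls it was at 6.15, 6.41, 5.66 and 13.8 CPM, after unloading at 40.2, 35.2, 26.7 and 31.8, and in diabetes at 24.7, 38.8, 44.2 and 31.8. The treated libraries all lay above control replicate 4, itself well above the other 3 controls. Rb1cc1 rose by 2.07 ± 0.26 after unloading (adjusted p = 4.2e-06) and 2.13 ± 0.26 in diabetes (adjusted p = 6.32e-06). These are 4.2-fold and 4.37-fold on the linear scale. The transcript is long and AT-rich (39.1% GC), and with the trend removed the changes were 1.19 (adjusted p = 2.75e-05) and 1.23 (adjusted p = 3.46e-05). In Notch2-mKO muscle Rb1cc1 was at 20.7, 9.21, 11.4 and 10.02 CPM in controls and 28.9, 19.5, 20.1 and 23.7 in diabetes. Control replicate 1 overlapped the diabetic libraries, and the change of 0.84 ± 0.25 (adjusted p = 0.0472) held in 1 of 8 fits that omit a library and did not pass with the trend removed (0.47, adjusted p = 0.0954). After Notch2-mKO unloading Rb1cc1 read 21.98, 21.1, 17.5 and 22.03 CPM and did not pass (0.69 ± 0.25, adjusted p = 0.0897).

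Ulk2, a catalytic kinase of that complex, rose in WT muscle by 0.61 ± 0.15 after unloading (adjusted p = 0.00225) and 0.50 ± 0.15 in diabetes (adjusted p = 0.0105), with some overlap of libraries in both cases. With the trend removed it passed after unloading (0.41, adjusted p = 0.0275) and not in diabetes (0.28, adjusted p = 0.13). Its paralogue Ulk1 was at 87.5, 92.0, 96.0 and 85.9 CPM in WT controls, 92.5, 97.5, 91.0 and 98.8 after unloading and 85.5, 78.1, 73.2 and 76.0 in diabetes. The diabetic libraries all lay just under the controls, but Ulk1 did not pass (0.07 ± 0.18 with an interval of -0.3 to 0.45, and -0.21 ± 0.18 with an interval of -0.58 to 0.17). In Notch2-mKO unloading its libraries spread from 47.7 to 136 CPM (0.24 ± 0.18, adjusted p = 0.433). In the lipid kinase complex Atg14, the subunit that directs it to autophagy, rose in WT muscle from 7.02 to 7.45 CPM in controls to 8.19 to 11.1 after unloading (0.48 ± 0.12, adjusted p = 0.00374) and 9.20 to 9.89 in diabetes (0.40 ± 0.12, adjusted p = 0.0138), and held with the trend removed. The catalytic subunit Pik3c3 rose in WT diabetes (0.29 ± 0.11, adjusted p = 0.0487) but held in 2 of 8 fits that omit a library and not with the trend removed (0.17, adjusted p = 0.259). Becn1, Pik3r4, Atg9a, Wipi1 and Wipi2 passed in no treatment comparison as fitted. After removal of the trend Wipi1 (0.37, adjusted p = 0.0467) and Wipi2 (0.30, adjusted p = 0.0398) were higher after WT unloading, and Wipi2 after Notch2-mKO unloading (0.40, adjusted p = 0.0243).

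Conjugation genes divided. Atg3, the E2-like enzyme that passes Atg8 proteins to lipid, was at 12.3, 16.3, 13.9 and 13.6 CPM in WT controls, 24.1, 24.2, 22.1 and 23.9 after unloading and 19.4, 22.2, 18.1 and 18.4 in diabetes. No treated library reached down to the controls. Atg3 rose by 0.75 ± 0.10 (adjusted p = 8.51e-06) and 0.48 ± 0.10 (adjusted p = 0.000938), and with the trend removed by 0.41 (adjusted p = 0.00266) after unloading, while diabetes no longer passed (0.19, adjusted p = 0.139). In Notch2-mKO muscle it went from 14.7 to 18.7 CPM in controls to 20.8 to 22.4 after unloading (0.35 ± 0.10, adjusted p = 0.0353) and 19.5 to 22.8 in diabetes (0.37 ± 0.10, adjusted p = 0.0354). These calls held in 1 and 2 of 8 fits that omit a library, and neither held with the trend removed (0.20, adjusted p = 0.19, and 0.22, adjusted p = 0.177).

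Atg4b, the protease that primes Atg8 proteins and removes them from lipid, went the other way. It was at 22.6, 25.04, 25.5 and 18.6 CPM in WT controls, 19.9, 15.7, 16.8 and 19.1 after unloading and 19.4 to 20.9 in diabetes. Control replicate 4 lay within the unloaded range. Atg4b fell by 0.36 on the log2 scale after unloading (SE 0.12, adjusted p = 0.0179), in 5 of 8 fits that omit a library and with the trend removed (-0.35, adjusted p = 0.0263). Diabetes did not pass for Atg4b, nor did either treatment in Notch2-mKO muscle, where it read 16.9 to 24.6 CPM throughout. Atg16l1, which forms the conjugation complex with Atg5 and Atg12, was lower in WT diabetes (-0.29 ± 0.11, adjusted p = 0.0422), and Atg12 higher after WT unloading (0.35 ± 0.13, adjusted p = 0.0414). These 2 calls held in 2 and 1 of 8 fits that omit a library, and neither held with the trend removed. Atg5 and Atg7 passed in none of the 4 comparisons.

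Of 8 lysosome genes, Lamp2, Ctsl and Tfeb were higher after WT unloading and 0 lower (all genes, 18.4% and 16.3%). In WT diabetes Lamp2 and Ctsl were higher and Tfe3 lower (all genes, 17.8% and 15.5%). With the trend removed 1 of the 8 was higher and 1 lower under each WT treatment. The shares of all genes in that fit were 10.8% and 15.7% after unloading and 10.4% and 13.8% in diabetes. Lamp2, a membrane glycoprotein needed for fusion of autophagosomes, was at 35.5, 40.6, 28.9 and 45.5 CPM in WT controls, 84.0, 75.2, 64.6 and 60.3 after unloading and 57.8, 69.8, 88.4 and 73.0 in diabetes. All treated libraries exceeded all controls. Lamp2 rose by 0.92 ± 0.14 (adjusted p = 2.14e-05) and 0.94 ± 0.14 (adjusted p = 2.4e-05). Its transcript is 38.7% GC, and with the trend removed it did not pass under either treatment (-0.02, adjusted p = 0.923, and 0.03, adjusted p = 0.873). In Notch2-mKO muscle Lamp2 was higher after unloading (0.47 ± 0.14, adjusted p = 0.0343), from 42.2 to 49.6 CPM in controls to 54.4 to 70.1, a call that held in 2 of 8 fits that omit a library and not with the trend removed (0.14, adjusted p = 0.496). In Notch2-mKO diabetes it was at 55.8 to 65.6 CPM, above all controls, but did not pass (0.44 ± 0.14, adjusted p = 0.0568).

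Ctsl, the cysteine protease cathepsin L, was at 61.3, 61.8, 55.8 and 66.6 CPM in WT controls, 125, 96.7, 84.5 and 75.7 after unloading and 78.5, 119, 160 and 107 in diabetes. It rose by 0.64 ± 0.18 (adjusted p = 0.00821) and 0.92 ± 0.18 (adjusted p = 0.000457), and with the trend removed was at 0.20 and 0.45 (adjusted p = 0.414 and 0.0602). In Notch2-mKO muscle Ctsl was at 52.2 to 69.05 CPM in controls, 68.9 to 118 after unloading and 83.3 to 97.1 in diabetes, and did not pass (0.47 ± 0.18, adjusted p = 0.102, and 0.57 ± 0.18, adjusted p = 0.0614). For the other cathepsins of the set, Ctsb read 266 to 302 CPM after unloading against 321 to 342 in controls (-0.24 ± 0.11, adjusted p = 0.0936; -0.31 with the trend removed, adjusted p = 0.0453), and Ctsd 589 to 1036 against 666 to 913 (-0.04 ± 0.16, adjusted p = 0.869). Differences between cathepsins were not tested.

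Tfeb and Tfe3 encode related transcription factors of lysosomal genes. Tfeb was at 112, 105, 86.0 and 86.8 CPM in WT controls, 146, 112, 126 and 123 after unloading and 113, 136, 106 and 116 in diabetes. It rose after unloading (0.38 ± 0.13, adjusted p = 0.0228), with the lowest unloaded library barely above the highest control, and did not pass in diabetes (0.28 ± 0.13, adjusted p = 0.0984). The transcript is 63.2% GC, and with the trend removed it was higher in WT unloading (0.68, adjusted p = 0.000163), WT diabetes (0.55, adjusted p = 0.00125) and Notch2-mKO diabetes (0.42, adjusted p = 0.0336). As fitted, Tfeb in Notch2-mKO muscle went from 91.7 to 128 CPM in controls to 115 to 162 after unloading (0.29 ± 0.13, adjusted p = 0.15) and 119 to 149 in diabetes (0.35 ± 0.13, adjusted p = 0.107). Tfe3 fell in WT diabetes from 12.5, 9.83, 9.76 and 10.3 CPM to 7.86, 6.27, 6.17 and 6.49, a change of -0.66 ± 0.12 (adjusted p = 0.00026) that held in 8 of 8 fits that omit a library and with the trend removed (-0.46, adjusted p = 0.00625). Lamp1 and the calcium channel gene Mcoln1 passed in no comparison with controls.

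The V-ATPase has a membrane sector, V0, through which protons pass, and a cytosolic sector, V1, which hydrolyses ATP. Of 17 tested subunit genes, 4 were higher and 2 lower after WT unloading, and 0 higher and 5 lower in WT diabetes (all genes, 18.4% and 16.3%, and 17.8% and 15.5%). With the trend removed 1 was higher and 1 lower after unloading, and 1 and 3 in diabetes (all genes, 10.8% and 15.7%, and 10.4% and 13.8%). By sector, as fitted, 2 of 8 V0 genes were lower and 1 higher after unloading, and 3 of 9 V1 genes were higher and 0 lower. In diabetes 4 of 8 V0 genes and 1 of 9 V1 genes were lower. Atp6v0a1 fell in diabetes from 82.9, 90.3, 105 and 82.8 CPM to 70.9, 63.2, 54.5 and 65.2 (-0.51 ± 0.12, adjusted p = 0.00234), with no overlap. Atp6v0a2 model 2, another isoform of the same subunit, went from 17.6 to 19.5 CPM in WT controls to 13.1 to 16.0 after unloading and 13.1 to 17.1 in diabetes (-0.36 ± 0.11 in both, adjusted p = 0.00986 and 0.0111). Both isoforms held with the trend removed in diabetes (-0.43 and -0.40).

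The calls of the proteolipid genes of the V0 ring were lost with the trend removed. Atp6v0b fell after WT unloading (-0.39 ± 0.11, adjusted p = 0.00911; -0.12 with the trend removed, adjusted p = 0.314). Atp6v0b (-0.48 ± 0.11, adjusted p = 0.00202) and Atp6v0c (-0.42 ± 0.12, adjusted p = 0.0104) fell in WT diabetes as fitted, but were at -0.14 and -0.08 with the trend removed and did not pass. The count of Atp6v0c can also share reads with its pseudogenes. Among V1 genes Atp6v1d went from 46.5, 47.2, 55.0 and 51.1 CPM in WT controls to 70.4, 64.7, 66.9 and 67.5 after unloading (0.43 ± 0.09, adjusted p = 0.000584), and from 51.8, 60.1, 62.4 and 52.9 to 65.5, 76.0, 67.5 and 78.2 in Notch2-mKO muscle (0.34 ± 0.09, adjusted p = 0.0242). Once the trend was removed, the changes were -0.15 and 0.13, and neither passed, while Atp6v1d was then lower in WT diabetes (-0.39, adjusted p = 0.0188). Atp6v0e2 was the subunit gene higher after WT unloading in both fits (0.37 ± 0.12, adjusted p = 0.0173, and 0.51, adjusted p = 0.00115). No subunit gene passed in Notch2-mKO diabetes, where the median over the 17 was -0.11.

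**Figure D3:**
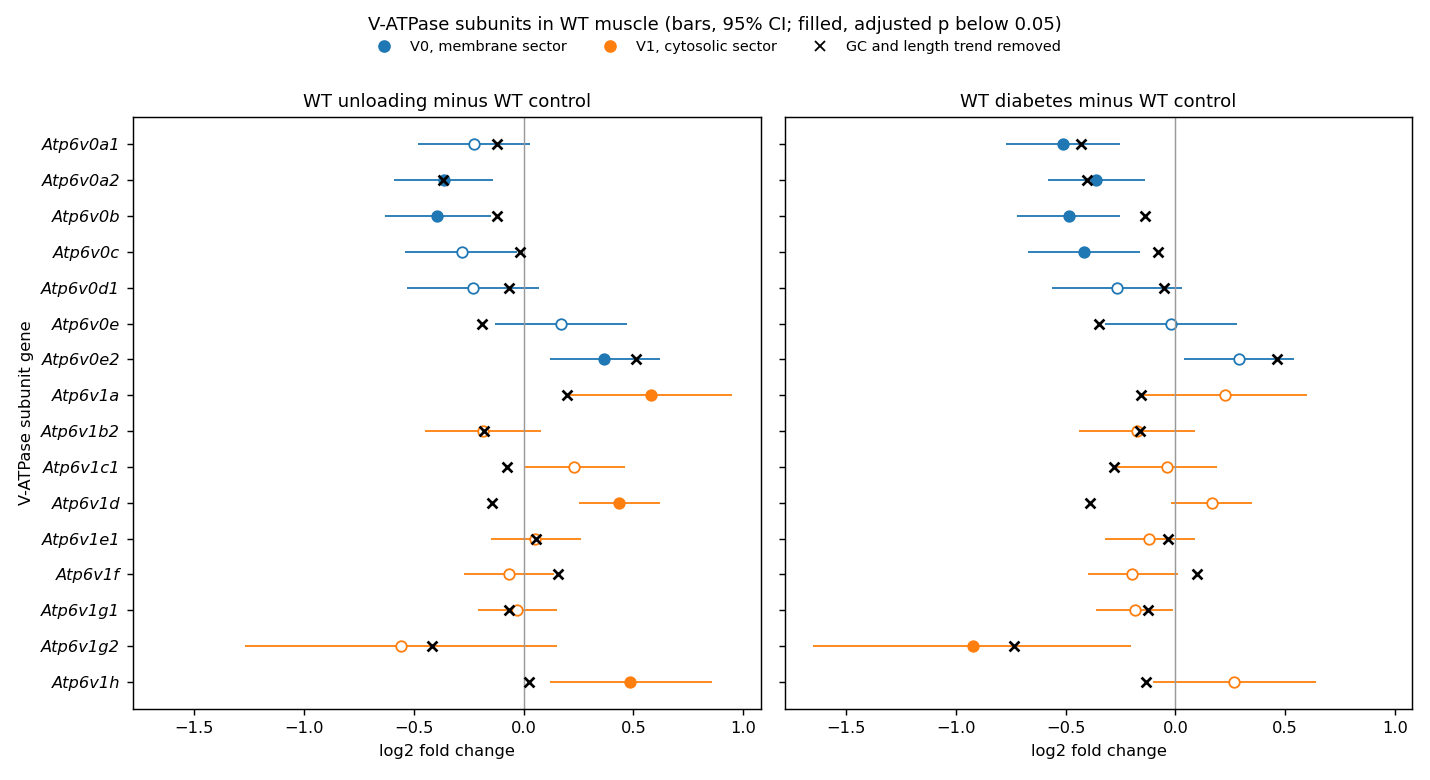
Log2 fold change (horizontal axis) of 16 V-ATPase subunit genes (vertical axis; Atp6v0a4 is left out) in WT muscle, as circles with 95% confidence intervals, filled where the test passed; crosses give the value with the GC and length trend removed. In diabetes Atp6v0a1 and Atp6v0a2 stay left of 0 by either measure, and the crosses of Atp6v0b and Atp6v0c lie near 0.

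With the trend removed, 11 of the 18 higher calls after WT unloading were kept and 4 of 12 in WT diabetes. For Notch2-mKO muscle 3 of 7 were kept after unloading and 1 of 5 in diabetes. In the same order, 5, 5, 1 and 1 calls were made in that fit alone. Of the lower calls 2 of 3 were kept after WT unloading and 3 of 7 in WT diabetes. Over all genes the share called higher went from 18.4% to 10.8%, 17.8% to 10.4%, 4.11% to 3.76% and 3.05% to 1.95% in that order. The share called lower went from 16.3% to 15.7% after WT unloading and 15.5% to 13.8% in WT diabetes. The share of calls kept over all genes is not given, so these losses do not set the members apart. Across the 54 members Pearson's r between GC content and log2 fold change was -0.399 after WT unloading and -0.461 in WT diabetes, and -0.123 and -0.192 in Notch2-mKO muscle. With the trend removed r was of the opposite sign, at 0.233, 0.159, 0.238 and 0.198 in the same order. These describe genes that share the same libraries, and no p was computed. AT-rich members such as Lamp2, Rb1cc1, Bnip3 and Bnip3l shrank, and GC-rich members such as Pink1, Map1lc3a and Tfeb grew.

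**Figure D4:**
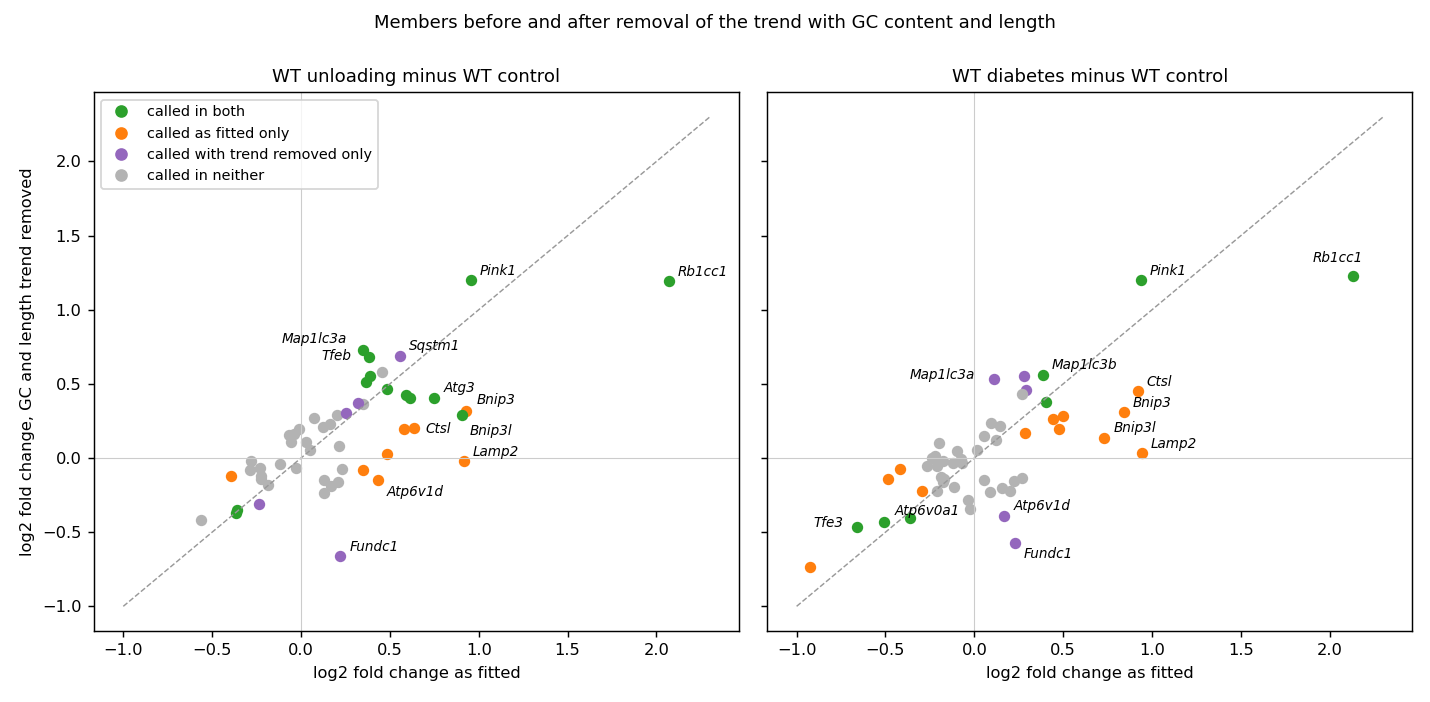
Log2 fold change of 53 members in WT muscle as fitted (horizontal axis) and with the GC and length trend removed (vertical axis); the dashed line marks equality and colours show in which fit the test passed. Pink1 lies above the line under both treatments, and Rb1cc1 and Lamp2 lie below it.

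The effect of deleting Notch2 in fibres was read in 3 comparisons of genotypes and in 2 differences of response. No member passed in any of them, nor did any of the 13048 genes (0.0%), in edgeR's test. At an unadjusted p below 0.05, 3 of 54 members were higher and 1 lower in Notch2-mKO than in WT controls. After unloading these numbers were 0 and 4, and in diabetes 0 and 2. Of the 13048 genes, 502 and 193, 656 and 689, and 306 and 386 were higher and lower, in the same order. For the difference in unloading response they were 0 and 6 members, against 768 and 1107 of all genes. For that in diabetes response they were 2 and 3 members, against 368 and 774 of all genes. The largest difference of response was that of Rb1cc1, whose unloading response was 1.38 smaller on the log2 scale in Notch2-mKO muscle. It was -1.38 ± 0.36 with an interval of -2.14 to -0.63 (adjusted p = 0.122). DESeq2 gave that difference an adjusted p of 0.0252, and without WT-Control replicate 4 edgeR gave 0.0106. With the trend removed it was -0.73 (adjusted p = 0.421). The diabetes response of Rb1cc1 differed by -1.28 ± 0.36 (adjusted p = 0.459, and 0.0325 without the same library).

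For Nbr1 the difference in unloading response was -0.54 ± 0.18 (adjusted p = 0.184), with 114, 88.5, 85.5 and 72.9 CPM in unloaded WT muscle and 55.5, 75.2, 60.1 and 77.8 in unloaded Notch2-mKO muscle. Those libraries overlapped. Atp6v1a, the catalytic A subunit, read 14.4 to 19.98 CPM in unloaded WT and 11.2 to 12.0 in unloaded Notch2-mKO libraries, which did not overlap, and the genotypes differed there by -0.50 ± 0.18 (adjusted p = 0.422). The smaller number of calls in Notch2-mKO muscle was accordingly not shown to be a smaller response. Over the 54 members the difference in response had a median of 0.01 for unloading and -0.02 for diabetes.

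**Figure D5:**
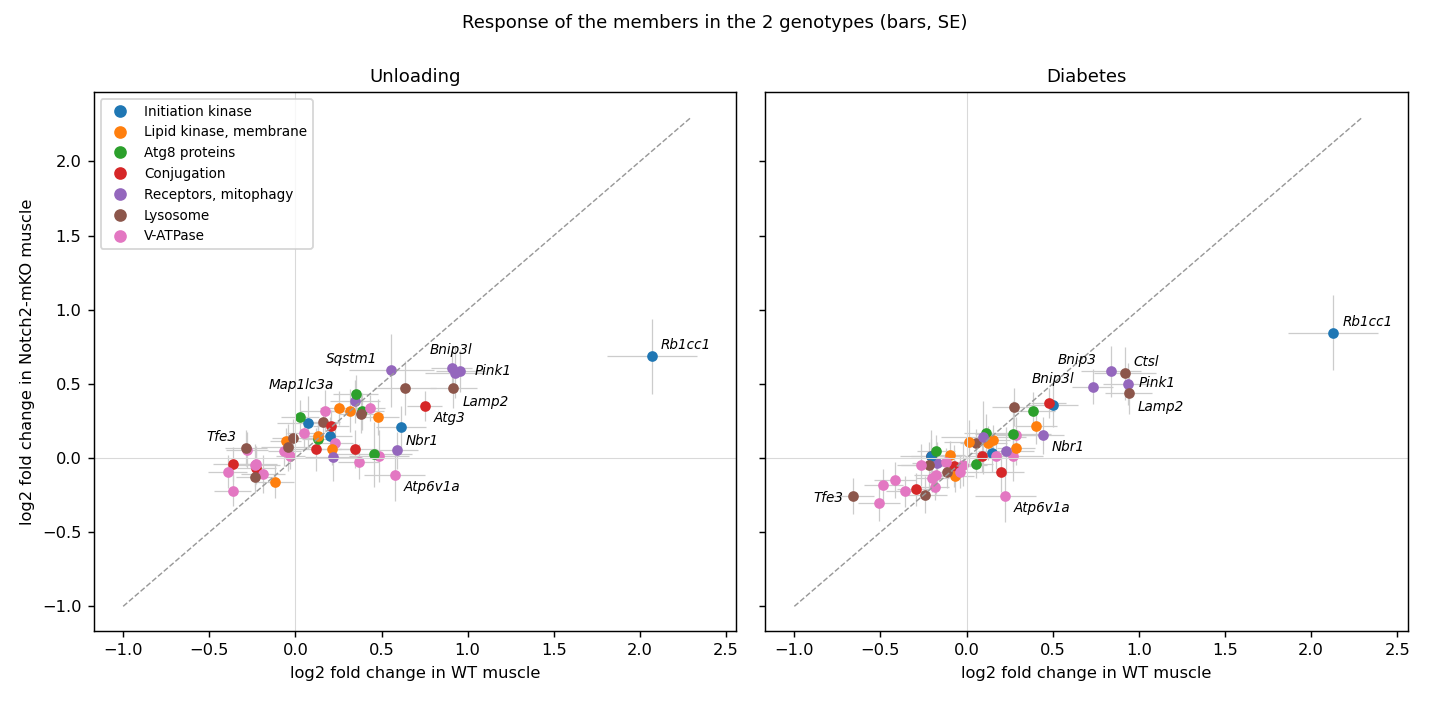
Log2 fold change with treatment in Notch2-mKO muscle (vertical axis) against that in WT muscle (horizontal axis) for 52 members (Atp6v0a4 and Atp6v1g2 are left out), with SE bars; the dashed line marks equal response. Most members lie near the line within their bars, and Rb1cc1 lies to its right in both panels.

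Diabetes and unloading were also set against each other. In WT muscle Optn was lower in diabetes than after unloading, at 71.1, 67.3, 67.8 and 61.3 CPM against 105, 110, 86.5 and 81.1, without overlap (-0.52 ± 0.14, adjusted p = 0.0448; 1.24% of all genes were lower and 2.31% higher). In Notch2-mKO muscle Atp6v1d was lower, at 54.9, 57.0, 58.6 and 58.7 against 65.5, 76.0, 67.5 and 78.2 CPM (-0.32 ± 0.09, adjusted p = 0.044; 1.12% lower and 1.95% higher). Optn kept its call with the trend removed (-0.51, adjusted p = 0.0348; 1.39% of all genes lower and 2.87% higher) and Atp6v1d did not (-0.38, adjusted p = 0.0839; 1.24% lower and 2.11% higher). Each call held in 1 of 8 fits that omit a library of the compared groups, and no other member passed as fitted.

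A pair of unloaded libraries stood apart for these genes. WT-Unloading replicate 1 was the highest of its group for 30 of 54 members (55.6%), against 33.4% of all genes, and Notch2-mKO-Unloading replicate 4 for 31 (57.4%), against 30.8%. With both left out, 12 members were higher and 6 lower after WT unloading, and 2 higher and 0 lower after Notch2-mKO unloading. Those 2 were Pink1 (0.55, adjusted p = 0.038) and Bnip3l (0.59, adjusted p = 0.0106). No share of all genes is given for that fit, so its counts do not set the members apart from other genes. At the other end, Notch2-mKO-Control replicate 4 was the lowest of its group for 26 of 54 members, against 23.5% of all genes. It was the highest for 0, against 23.6% of all genes.

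Other genes of the route were read from 6 lists with 112 tested genes. Of these 21 were higher and 18 lower after WT unloading, 21 and 19 in WT diabetes, 6 and 2 after Notch2-mKO unloading, and 3 and 2 in Notch2-mKO diabetes, where the shares of all genes were 18.4% and 16.3%, 17.8% and 15.5%, 4.11% and 3.2%, and 3.05% and 2.54%. In the fit without the trend, the counts were 15 and 22, 11 and 20, 6 and 5, and 2 and 5. The shares of all genes were then 10.8% and 15.7%, 10.4% and 13.8%, 3.76% and 4.0%, and 1.95% and 2.67%. The 112 genes had a median of -0.035 after WT unloading against -0.019 for all genes. Among 17 receptor and mitophagy genes 6 were higher and 2 lower after WT unloading and 7 and 2 in diabetes. Tax1bp1, a receptor for ubiquitin-tagged cargo, rose in all 4 comparisons as fitted, from 28.04 ± 7.86 CPM in WT controls to 78.1 ± 19.0 after unloading (SD, n = 4; 1.48 ± 0.17, adjusted p = 1.69e-06; 0.91 with the trend removed). Its rise in Notch2-mKO diabetes (0.627 ± 0.165, adjusted p = 0.0294) did not pass with the trend removed (0.369, adjusted p = 0.103). Sec62, a receptor for the endoplasmic reticulum, rose in WT muscle by 1.53 ± 0.20 (adjusted p = 7.04e-06) and 1.43 ± 0.20 (adjusted p = 2e-05), or 0.97 and 0.88 with the trend removed.

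Among lysosomal hydrolases 1 of 34 was higher and 11 lower after WT unloading, and 1 higher and 8 lower in WT diabetes, with medians of -0.25 and -0.18. Of all genes 18.4% were higher and 16.3% lower after WT unloading, and 17.8% and 15.5% in WT diabetes. In WT muscle the counts of hydrolases were equal with the trend removed (all genes, 10.8% and 15.7%, and 10.4% and 13.8%). In Notch2-mKO muscle 1 was higher and 2 lower after unloading (all genes, 4.11% and 3.2%), and 1 and 0 in diabetes (3.05% and 2.54%). There the trend-removed counts differed, at 1 and 4 after unloading (all genes, 3.76% and 4.0%) and 1 and 2 in diabetes (1.95% and 2.67%). The higher gene was Ids, which encodes iduronate 2-sulfatase and rose in all 4 comparisons (1.19 ± 0.15, adjusted p = 3.88e-06 after WT unloading; 0.51 with the trend removed). Ctsa fell after WT unloading from 82.9 ± 11.2 to 56.2 ± 3.36 CPM (SD, n = 4; -0.56 ± 0.11, adjusted p = 0.000426), and Smpd1, acid sphingomyelinase, in WT diabetes from 126 ± 22.2 to 75.4 ± 8.79 CPM (-0.74 ± 0.12, adjusted p = 7.96e-05). Many hydrolases are abundant in macrophages. Over 14 macrophage and leukocyte markers the summed level was 140 to 173 CPM in WT controls, 73.7 to 122 after unloading and 103 to 120 in diabetes, with 7 of 14 lower after unloading, and 3 lower and 2 higher in diabetes. In Notch2-mKO muscle it was 96.6 to 160, 103 to 128 and 98.04 to 130, with 0 lower. Its part in the change of hydrolases was not tested.

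Of 13 genes of lysosomal nutrient sensing 6 were higher and 2 lower in WT muscle under each treatment. The shares of all genes were 18.4% and 16.3% after unloading and 17.8% and 15.5% in diabetes. With the trend removed 3 were higher and 0 lower under each treatment (all genes, 10.8% and 15.7%, and 10.4% and 13.8%). Fnip1, a partner of folliculin, rose by 1.46 ± 0.27 after unloading (adjusted p = 0.000184; 0.57 with the trend removed), and Rragd, a Rag GTPase, by 0.67 ± 0.14 (adjusted p = 0.000916; 0.43 with the trend removed). In the conjugation and fusion list, 4 of 17 were higher and 2 lower after WT unloading (all genes, 18.4% and 16.3%). Stx17, the SNARE of the autophagosome, rose by 0.94 ± 0.16 (adjusted p = 0.00012; 0.47 with the trend removed), and Atg4d, a paralogue of Atg4b, fell by 0.76 on the log2 scale (SE 0.15, adjusted p = 0.00048), from 108 ± 19.6 to 63.9 ± 4.33 CPM (SD, n = 4).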

How the data were processed

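RNA was sequenced from gastrocnemius muscle in 24 libraries, 4 for each of 6 groups, which were assigned from the sample titles. The authors deposited estimated counts per gene model, often with decimals, and columns they call normalized, which hold log2 values and were not used here. Between 26.4 and 34.6% of the counts above 0 in a library were whole within 0.001. The build was mm10 per the submitters' processing notes, and no aligner or counter is given in the sources used here. The 8 control columns, which stand in 2 tables each, were identical in both. Every pair of replicates differed beyond sampling noise (chi-square per gene at least 14.6).

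The estimated counts were rounded for edgeR 4.0.16 (R 4.3.3; filterByExpr over the groups, TMM scaling, quasi-likelihood F test, all 24 libraries in 1 fit). P-values were adjusted by Benjamini and Hochberg over 13048 genes, and a gene passed at an adjusted p below 0.05. The SE of a log2 fold change was its size divided by the square root of F, and intervals are 95% with 18 residual degrees of freedom. Groups of 4 share a biological coefficient of variation of 20%.

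For the fit with the trend removed, each library's log2 CPM minus the gene's mean was regressed on natural splines (5 degrees of freedom each) of GC content and log2 length, taken from the longest protein-coding transcript in GENCODE, and the fitted values entered as offsets. GC content was known for 99.5% of tested genes. Levels per kb use the same lengths. Other alternatives were DESeq2's size factors, upper quartile scaling, no filter, DESeq2 1.42.0, the replicate number as a block, and each library left out in turn. The scripts were tested on simulated data.

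The members and gene lists were chosen with earlier results of these data known. Values were given for 11 listed members whatever their values, for the 6 members of smallest p in each treatment comparison, and for members that passed in other comparisons; in other lists up to 2 genes of smallest p per comparison could be named. Genes named outside that rule, such as Nbr1, Ulk2, Atg14, Fundc1, Ctsb, Ctsd and V-ATPase subunits, were chosen after their values were seen.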

Additional observations from a re-analysis of the deposited data

Results flagged for a closer look

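In 7 of 102 groups of 4 libraries, 1 library lay far from the other 3, by Dixon's criterion on the gap to the nearest, where chance alone gives about 1 in 20. Rb1cc1 in WT-Control replicate 4 was at 13.8 CPM, with the next at 6.41. Map1lc3a in WT-Unloading replicate 2 was at 384 CPM, with the next at 319. In Notch2-mKO-Unloading replicate 4, Bnip3 was at 364 CPM (next 260) and Ctsl at 118 (next 74.3). Atg3 in WT-Unloading replicate 3 was low at 22.1 CPM, with the next at 23.9. Atg4b was high at 20.9 CPM in WT-Diabetes replicate 3 (next 19.6) and at 22.3 in Notch2-mKO-Diabetes replicate 2 (next 20.5), within narrow ranges.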

How the results depend on the processing

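Counts of members that passed depended on the fit as follows, and causes were not tested. Upper quartile scaling gave 7 lower members after WT unloading and 3 higher in Notch2-mKO diabetes. Removing the GC and length trend gave 7 higher in WT diabetes, 4 in Notch2-mKO unloading and 2 in Notch2-mKO diabetes. With the replicate block in the same fit these were 7, 4 and 1, and Lamp2 after WT unloading went from 0.92 to -0.02 (-0.018 with the block), which passes in neither fit (adjusted p = 0.923 and 0.937). The replicate block alone left 1 higher in Notch2-mKO diabetes. DESeq2 called 1 member, Rb1cc1, lower in the difference of unloading responses. For WT diabetes against unloading the lower count was 0 without the filter and with the block, 2 with DESeq2, and 2 with trend and block. For Notch2-mKO diabetes against unloading it was 0 with DESeq2 size factors, without the filter, and with the block, the trend removed or both.

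With both high unloading libraries left out, an alternative chosen after seeing the data, counts were 6 lower after WT unloading, 2 higher after Notch2-mKO unloading, and 0 in both comparisons of diabetes with unloading. Over fits with 1 library left out, the higher and lower counts ranged from 11 to 20 and 2 to 4 after WT unloading, 10 to 13 and 4 to 8 in WT diabetes, 2 to 8 and 0 after Notch2-mKO unloading, and 0 to 7 and 0 in Notch2-mKO diabetes. The lower count ranged from 0 to 1 in both differences of response, 0 to 1 for WT diabetes against unloading and 0 to 3 for the same in Notch2-mKO. The 11 came without WT-Unloading replicate 1, and the 4 lower without WT-Control replicate 3. For Notch2-mKO unloading 2 to 4 remained without Notch2-mKO-Control replicates 2, 3 or 4, Notch2-mKO-Unloading replicates 2 or 4, or Notch2-mKO-Diabetes replicate 3. In Notch2-mKO diabetes 0 were left without Notch2-mKO-Control replicates 2, 3 or 4 or Notch2-mKO-Diabetes replicates 3 or 4, 1 or 2 without Notch2-mKO-Diabetes replicates 1 or 2, and 3 without WT-Control replicates 1 or 2, WT-Unloading replicates 2 or 3, or WT-Diabetes replicates 2 or 4. Both differences of response gave 1, Rb1cc1, without WT-Control replicate 4, and the 3 came without Notch2-mKO-Unloading replicate 1.

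Same-numbered libraries of different groups were not paired by the labels or the data: deviations correlated above 0.1 in 7 of 36 pairs (r from -0.206 to 0.326), and 9 of 36 were closest to their own number.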

Other observations

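After the group means were subtracted, the 3 genes outside the set that varied most like Bnip3l over the 24 libraries were Nap1l1 (r = 0.92), Erbb2ip (r = 0.881) and Orc2 (r = 0.868). For Gabarapl1 they were Tmem140 (r = 0.923), 3110062M04Rik (r = 0.913) and Ddx56 (r = 0.901), and replicate 1 of unloaded WT muscle was the highest library of Gabarapl1. These correlations, among genes of at least 10 CPM, are descriptions across libraries that share depth and base composition, and carry no p.

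Tmem41b and Vmp1, which encode lipid scramblases needed to build autophagosomes, were lower in Notch2-mKO diabetes, at -0.40 ± 0.10 (SE, adjusted p = 0.0239 in edgeR's test) and -0.42 ± 0.11 (adjusted p = 0.032). Both kept the call with the trend removed, at -0.67 and -0.64. Zfyve1, which marks the membrane where autophagosomes form, rose after unloading in WT (0.90 ± 0.18, adjusted p = 0.000491) and Notch2-mKO muscle (0.72 ± 0.18, adjusted p = 0.0201), and in WT diabetes (0.65 ± 0.18, adjusted p = 0.00736). The tendon markers ranged from 251 to 292 CPM summed over 5 genes in WT controls and from 62.7 to 134 in treated WT muscle, with 4 of 5 lower in every treatment comparison.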
